A study of Homo sapiens with 6 samples.

Results

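The thyroid differentiation genes examined here were TG, TSHR, SLC5A5, SLC26A4, PAX8, NKX2-1, FOXE1, DUOX2 and DIO2. They were taken by gene symbol, and all 9 were found among the 19684 genes with an Ensembl identifier. The samples were 6 mRNA-seq libraries of K1 cells, an established human papillary thyroid carcinoma cell line. Of these, 3 were transfected with a negative control siRNA (NC) and 3 with an siRNA against NEAT1_2 (si-NEAT1_2), the long transcript of the NEAT1 gene, a nuclear long noncoding RNA. A further table gave 1 value per group. Both groups shared the cell line and the transfection, a time after transfection was not given in the sources used here, and NEAT1 itself was not analysed here. The labels do not say that the libraries came from separate cultures, so the p-values measure only the spread between these libraries, which may be technical.

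Thyroid follicular cells make thyroid hormone under the control of thyrotropin (TSH), which acts on the receptor encoded by TSHR, mainly through cyclic AMP. Iodide enters the cell through the sodium/iodide symporter (SLC5A5), passes to the follicle lumen partly through pendrin (SLC26A4), and is coupled to tyrosines of thyroglobulin (TG) with hydrogen peroxide from the dual oxidase DUOX2. The transcription factors PAX8, NKX2-1 and FOXE1 maintain this programme, and the deiodinase DIO2 converts thyroxine to the active hormone. Loss of such genes is a known feature of dedifferentiated thyroid cancer.

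PAX8, FOXE1 and TG were the only members with more than 12 counts in any library. PAX8 was high, at 135 FPKM (fragments per kilobase of transcript, scaled to library size) averaged over the 6 libraries, FOXE1 lay at 7.51 FPKM and TG at 2.75 FPKM. The other 6 genes averaged 0.143 FPKM or less. None of the 3 genes with enough counts for a test differed between NC and si-NEAT1_2 beyond the spread between libraries, and 0 of 3 were called, against 0.0% of all 13109 genes tested (0 genes). Calls required a fold change of at least 2 and a Benjamini-Hochberg adjusted p under 0.05 in edgeR's quasi-likelihood test. At an unadjusted p under 0.05, 24.1% of all genes tested passed (3165 genes, 11.2% higher and 12.9% lower in si-NEAT1_2), and 0 of the 3 members did.

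The total expected count per library ranged from 22798631 to 27066025. The second si-NEAT1_2 library stood apart from the others on the first principal component, which held 55.1% of the variance (score 52.7). The second NC library lay at its other end (-43.3). The other NC libraries lay at -15 and -7.46, and the other si-NEAT1_2 libraries at -2.93 and 15.9. Every si-NEAT1_2 score was thus above every NC score. Of 6 markers of thyroid follicular cells, TSHR, SLC5A5 and NKX2-1 were under 1 FPKM in every library, so that the labelled origin rested on PAX8, FOXE1 and TG. The summed level of these 6 markers was 139 to 145 FPKM in NC and 122 to 180 FPKM in si-NEAT1_2. It lay mostly on PAX8, at 129 to 134 FPKM in NC and 113 to 169 FPKM in si-NEAT1_2. The epithelial sum, mostly the keratins KRT8 and KRT18, was 1542.4 to 1753.1 FPKM in NC and 1674.9 to 2167.8 FPKM in si-NEAT1_2, while KRT19 and CDH1 were under 1 FPKM in every library. All 4 C cell markers and all 4 endothelial markers were under 1 FPKM in every library, and CALCA was at 0. The C cell sum was 0.0 to 0.09 FPKM in both groups, and the endothelial sum was 0.14 to 0.18 FPKM in NC and 0.07 to 0.20 FPKM in si-NEAT1_2. The sum of 5 fibroblast markers was 24.9 to 29.4 FPKM in NC and 19.2 to 22.2 FPKM in si-NEAT1_2, and that of 4 leukocyte markers 11.6 to 13.2 and 15.0 to 19.9 FPKM. These last sums did not overlap between the groups and lay mostly on LUM and CD68, and their part in the results was not tested. In counts scaled to library size, LUM was lower and CD68 higher without overlap. Of all 13109 genes tested, 14.1% were lower and 15.4% higher without overlap. Neither LUM nor CD68 was called (adjusted p = 0.170 for each with edgeR). The other leukocyte markers, PTPRC, CD3E and CD79A, were under 1 FPKM in every library. Of the other fibroblast markers, COL1A2 and DCN were under 1 FPKM, and COL1A1 and PDGFRB reached at most 2.25 and 1.2 FPKM. All 6 libraries were of the K1 line. In bulk libraries, fewer cells of a type and less RNA per cell cannot be told apart.

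Of the 9 genes, TSHR, NKX2-1 and DIO2 lie on chromosome 14 and the others on separate chromosomes (GRCh38, GENCODE release 29). TSHR (ENSG00000165409) spans 80954989 to 81146302 on the plus strand of chromosome 14, DIO2 (ENSG00000211448) spans 80197527 to 80387757 and NKX2-1 (ENSG00000136352) spans 36516392 to 36521149, both on the minus strand. PAX8 (ENSG00000125618) occupies bases 113215997 to 113278950 of chromosome 2 on the minus strand, and FOXE1 (ENSG00000178919) bases 97853254 to 97856715 of chromosome 9 on the plus strand. SLC5A5 (ENSG00000105641) occupies bases 17871973 to 17895174 of chromosome 19 and SLC26A4 (ENSG00000091137) bases 107660635 to 107717809 of chromosome 7, both on the plus strand. DUOX2 (ENSG00000140279) occupies bases 45092650 to 45114344 of chromosome 15 on the minus strand. Genes on the opposite strand overlap TG (SLA), TSHR (CEP128) and DUOX2 (DUOXA2) and are listed in the tables. A counting setting for strand was not given in the sources used here, so reads from overlapping genes may not be told apart. The antisense genes annotated over PAX8, SLC26A4, NKX2-1 and DIO2 were not analysed here. CEP128 had 41 to 137 counts per library, against 3 to 9 for TSHR, while SLA had 0 to 4 and DUOXA2 0 to 1.

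RefSeq promoter windows (GRCh38.p14, 250 bases before to 50 bases after a transcription start) matched 8 of the 9 genes with 10 windows, because NKX2-1 and DIO2 have a pair each, and TG was not matched. They were searched on both strands for the cyclic AMP response element TGACGTCA, the TATA box TATAAA and the core CAAGTG that NKX2 family factors prefer. The cyclic AMP element was found in the window of 1 gene, DIO2, and in 1.85% of all 35116 windows. The TATA box was found for 3 genes and the CAAGTG core for 1, and each occurred in 11.5% of all windows. The 5 matches are shown with their surroundings, with the motif in capitals, 5′ to 3′ on the strand of the gene.
DIO2, cyclic AMP element, chr14:80212256-80212285, minus strand: ctctttctcaaTGACGTCAagatctttacc
DIO2, TATA box, chr14:80212192-80212221, minus strand: agccagggaatgTATAAAaggcgtcaggga
SLC26A4, TATA box, chr7:107660784-107660813, plus strand: ttctgagagcgcTATAAAggcagcggaagg
NKX2-1, CAAGTG core, chr14:36519686-36519715, minus strand: taaaaatcctgaCAAGTGaaacttaaaggt
DUOX2, TATA box read on the opposite strand, chr15:45114282-45114311, minus strand: cgcgggacccctTTTATAgcagcgtgggcg
The cyclic AMP element of DIO2 begins 96 bases before its start and the TATA box of that window 31 bases before it. The TATA box of SLC26A4 begins 32 bases before the start, the CAAGTG core of NKX2-1 147 bases and the DUOX2 match 127 bases. A match of letters is a description and not a binding site. The windows of PAX8 and FOXE1, both well detected, held none of these motifs, and that of FOXE1 had a GC content of 76.0%, a value that 92.6% of all windows did not exceed.

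PAX8, the paired-box factor required for the follicular lineage, was the most abundant member in every library. Its expected counts were 11582, 9861 and 11585 in the NC libraries and 10614, 9650 and 12856 in the si-NEAT1_2 libraries. The corresponding FPKM values were 134, 129 and 134 in NC and 131, 113 and 169 in si-NEAT1_2. The groups overlapped, because the second si-NEAT1_2 library was the lowest and the third si-NEAT1_2 library the highest of all 6. The mean was 133 ± 2.92 FPKM in NC and 138 ± 28.2 FPKM in si-NEAT1_2 (SD, n = 3), with a two-sided exact permutation p of 0.90. Scaled by TMM, PAX8 lay at 430 ± 16.6 CPM (counts scaled to library size) in NC and 450 ± 56.9 in si-NEAT1_2, a difference of 4.75%. The log2 fold change of si-NEAT1_2 against NC was 0.07 (SE 0.131, 95% confidence interval -0.22 to 0.35, adjusted p = 0.767 with edgeR), which bounds the fold change between 0.858 and 1.28. The sign rested on 1 library, as the log2 fold change was -0.04 without the third si-NEAT1_2 library.

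FOXE1, the forkhead factor of thyroid development, was the second in level. Its counts were 751, 593 and 593 in NC and 687, 514 and 764 in si-NEAT1_2, or 8.01, 7.51 and 6.77 FPKM against 8.23, 5.75 and 8.78 FPKM. The si-NEAT1_2 values enclosed those of NC, with the second si-NEAT1_2 library again the lowest and the third the highest. The mean was 7.43 ± 0.624 FPKM in NC and 7.59 ± 1.61 FPKM in si-NEAT1_2 (SD, n = 3, exact permutation p = 0.90). Its log2 fold change was 0.08 (SE 0.164, 95% confidence interval -0.28 to 0.45, adjusted p = 0.766 with edgeR), a fold change between 0.825 and 1.36. Without the third si-NEAT1_2 library the value was -0.02, and without the second 0.21.

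TG, the scaffold on which thyroid hormone is made, is among the most abundant transcripts of normal thyroid. The gene (ENSG00000042832) occupies bases 132866958 to 133134903 of chromosome 8 on the plus strand. In K1 cells it had 632, 477 and 588 counts in NC and 601, 539 and 576 in si-NEAT1_2. The FPKM values were 2.80, 2.48 and 2.84 in NC and 2.99, 2.66 and 2.74 in si-NEAT1_2, so that TG held rank 8938 to 9792 of the 19684 genes, and PAX8 rank 495 to 819. The groups overlapped, and the lowest library was the second of NC. The mean was 2.71 ± 0.197 FPKM in NC and 2.80 ± 0.172 FPKM in si-NEAT1_2 (SD, n = 3, exact permutation p = 0.60). The log2 fold change of TG was 0.09 (SE 0.139, 95% confidence interval -0.22 to 0.39, adjusted p = 0.718 with edgeR), a fold change between 0.858 and 1.31.

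**Figure D1:**
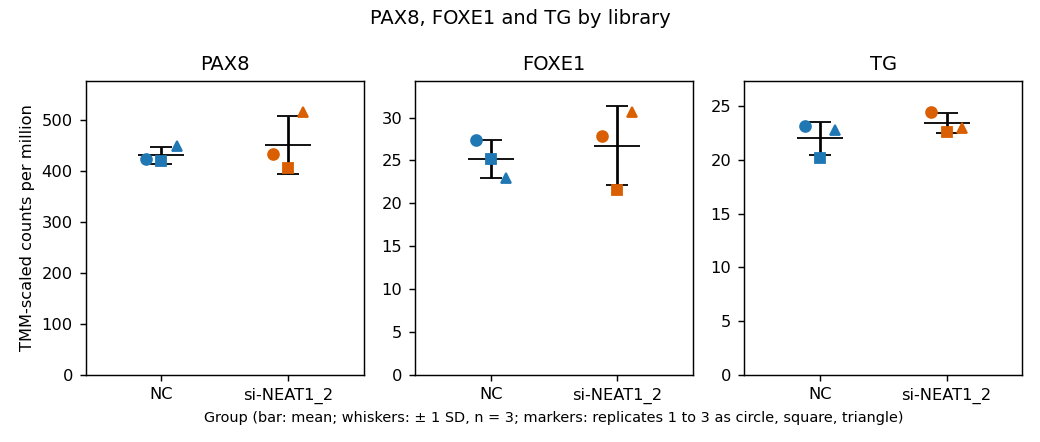
TMM-scaled CPM of PAX8, FOXE1 and TG (vertical axes from 0) in the NC and si-NEAT1_2 libraries, with 1 marker per library and bars for the mean ± SD of 3 libraries. The groups overlap for each gene, and the spread of PAX8 and FOXE1 is wider in si-NEAT1_2 than in NC.

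The labels carry a library code, whose meaning is not stated. Code 2 held 2 NC libraries and 1 si-NEAT1_2 library, code 3 held 1 of each, and code 4 held a si-NEAT1_2 library only. The log2 ratio of TMM-scaled counts within code 2 was -0.10 for PAX8, -0.16 for FOXE1 and 0.07 for TG. Within code 3 it was 0.28 for PAX8, 0.16 for FOXE1 and 0.00 for TG. PAX8 and FOXE1 thus took opposite signs in the 2 codes.

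TSHR, the receptor through which TSH drives the follicular cell, was close to absent. Its counts were 5, 3 and 5 in NC and 6, 7 and 9 in si-NEAT1_2, or 0.04, 0.03 and 0.04 FPKM against 0.06, 0.06 and 0.08 FPKM. The groups did not overlap, every si-NEAT1_2 value being the higher, in FPKM and in TMM-scaled CPM. In CPM this was the case for 3.04% of the 5732 genes with any count that were too low for the test. Of these genes, 2.62% had every si-NEAT1_2 value lower and 5.65% did not overlap in either direction. Genes at 0 in any si-NEAT1_2 library cannot be higher in this way and are part of the 5732. Among the 13109 genes tested, 15.4% had every si-NEAT1_2 value higher. The exact permutation p of 0.10 was the smallest that 3 against 3 libraries can give. From counts summed over a group, TSHR lay at 0.173 CPM in NC (95% Clopper-Pearson interval 0.0921 to 0.296) and 0.293 in si-NEAT1_2 (0.184 to 0.444), and the intervals overlapped. These intervals cover counting error only. In a fit of 18808 genes without the filter on low counts, TSHR was not called (log2 fold change 0.81, adjusted p = 0.608 with edgeR).

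The iodide transporters were near the limit of detection. SLC5A5 had 0, 1 and 2 counts in NC and 0, 2 and 0 in si-NEAT1_2, all under the limit of 3 counts that a count of 0 allows, which was 0.111 to 0.132 CPM. SLC26A4 had 12, 8 and 5 counts in NC and 4, 9 and 11 in si-NEAT1_2. Its FPKM values were 0.18, 0.07 and 0.04 in NC and 0.18, 0.07 and 0.09 in si-NEAT1_2, and the groups overlapped. The FPKM values did not follow the counts, since the first NC library with 12 counts and the first si-NEAT1_2 library with 4 counts were both listed at 0.18 FPKM.

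The remaining members were as low. NKX2-1, the homeobox factor that acts beside PAX8, had 1, 0 and 1 counts in NC and 0, 3 and 1 in si-NEAT1_2. DUOX2 had 7, 6 and 2 counts in NC and 3, 3.53 and 5 in si-NEAT1_2, at 0.04 FPKM or less in every library. DIO2 had 4, 5 and 3 counts in NC and 8, 8 and 3 in si-NEAT1_2, with FPKM values of 0.04, 0.15 and 0.12 in NC and 0.30, 0.05 and 0.20 in si-NEAT1_2. The groups overlapped for all 3 genes, and no difference was detectable at this depth. Without the filter on low counts, the fit called 0 of the 9 members with edgeR.

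**Figure D2:**
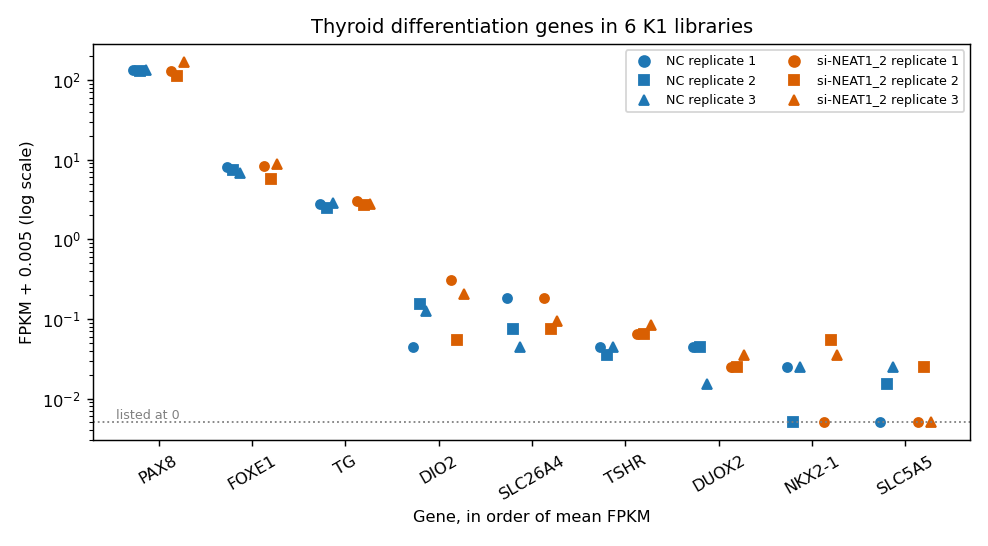
FPKM of the 9 thyroid differentiation genes in the 6 K1 libraries (log axis after adding 0.005), ordered by mean FPKM, with 1 marker per library, NC in blue and si-NEAT1_2 in orange. PAX8 lies near 135 FPKM, FOXE1 near 7.51 and TG near 2.75, and the other 6 genes lie at 0.30 FPKM or below in every library.

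By mean FPKM over the 6 libraries the order was PAX8, FOXE1, TG, DIO2 (0.143), SLC26A4 (0.105), TSHR (0.0517), DUOX2 (0.0267), NKX2-1 (0.0200) and SLC5A5 (0.00833). PAX8 lay 18 times above FOXE1, FOXE1 2.73 times above TG, and TG 19.2 times above DIO2. The ranges of these first 4 genes did not overlap in either group. From DIO2 downwards the ranges of neighbours overlapped over the 6 libraries. Within si-NEAT1_2 alone, TSHR did not overlap NKX2-1, which came next. The 3 transcription factors therefore did not lie together, with PAX8 and FOXE1 at the top of the list and NKX2-1 near its foot.

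The genes whose log2 CPM followed a member most closely over the 6 libraries were sought among 9469 genes and are given as a description. For PAX8 they were TSC2 (Pearson r 0.992), KAT7 (0.992) and CEP164 (0.99), and 61 genes exceeded 0.9. For FOXE1 they were NAA40 (0.982), TMEM185B (0.977) and DNMT3B (0.976), also with 61 genes above 0.9. For TG they were NCOA5 (0.976), TTC39C (0.974) and LRCH3 (0.968), with 14 genes above 0.9. Among the members, PAX8 and FOXE1 correlated at 0.653, TG and FOXE1 at 0.305, and TG and PAX8 at 0.242. These points share 6 libraries, their depth and the second library of each group, which lay at the ends of the first principal component.

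Further genes of thyroid hormone synthesis, hormone activation, the thyroid lineage and TSH signalling were taken as 33 companions, of which 20 had enough counts for a test. None was called, against the same 0.0% of all genes. At an unadjusted p under 0.05 there were 2 higher (CTSB and CTSD) and 3 lower (PRKAR1A, PRKACB and CREB1), that is 5 of 20, beside 24.1% of all genes tested. The TMM-scaled CPM of the groups did not overlap for 7 of the 20, with CTSB, CTSD, THRA, SLC16A10 and HHEX higher and THRB and PRKAR1A lower in si-NEAT1_2, beside 29.5% of all genes tested (15.4% higher and 14.1% lower). The balance depended on the measure, as the FPKM values did not overlap for 5 of the 20, with 2 higher and 3 lower. The share of all genes in FPKM was not taken. The companions with an unadjusted p under 0.05, 2 higher and 3 lower, were not stable in number. They were 0 and 0 without the second NC library and 2 and 5 without the first si-NEAT1_2 library. The median log2 fold change of the 20 genes was -0.01 and that of all genes 0.00902.

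Of 13 further synthesis genes 5 were tested, and the median log2 fold change was 0.09. The lysosomal proteases that release hormone from thyroglobulin were abundant. CTSD lay at 192 ± 19.3 FPKM in NC and 248 ± 31.4 FPKM in si-NEAT1_2 (SD, n = 3; log2 fold change 0.44, adjusted p = 0.170 with edgeR). CTSB lay at 315 ± 31.9 and 364 ± 33.9 FPKM (0.30, adjusted p = 0.201) and CTSL at 54.0 and 54.2 FPKM (0.09, adjusted p = 0.718). The lowest log2 fold change of all companions was that of IYD, the enzyme that recovers iodide, at -0.64 (adjusted p = 0.431).

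Of the 5 genes of hormone activation and receptors 3 were tested. The receptor THRB lay at 12.8 ± 0.789 FPKM in NC and 9.36 ± 3.17 FPKM in si-NEAT1_2 (SD, n = 3; log2 fold change -0.39, adjusted p = 0.216 with edgeR). Its values were 13.7, 12.6 and 12.2 FPKM against 11.4, 5.70 and 11 FPKM, with the second si-NEAT1_2 library the lowest. SLC16A10, an aromatic amino acid and thyroid hormone transporter, had the highest log2 fold change of the companions, 0.62 (adjusted p = 0.321). Of 3 lineage genes 2 were tested and took opposite signs, both named after their values were seen. The log2 fold change was 0.42 for HHEX (adjusted p = 0.238) and -0.28 for GLIS3 (adjusted p = 0.466) with edgeR.

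Of 12 genes of TSH signalling 10 were tested, with a median log2 fold change of -0.23 and 7 negative values. CGA, the shared hormone subunit made in the pituitary, had 0 counts in every library. GNAS, the stimulatory G protein to which the receptor couples, lay at 392 FPKM in NC and 408 FPKM in si-NEAT1_2 (log2 fold change 0.12). GNA11 lay at 37.6 and 32.8 FPKM (-0.13), the adenylyl cyclase ADCY3 at 21.4 and 19.0 FPKM (-0.06), and the catalytic subunit PRKACA of protein kinase A at 28.2 and 26.6 FPKM (0.04). The regulatory subunit PRKAR1A lay at 56.6 ± 8.12 and 43.6 ± 9.91 FPKM (SD, n = 3; -0.32, adjusted p = 0.186 with edgeR). PRKACB and CREB1, named after their values were seen, had log2 fold changes of -0.51 (adjusted p = 0.200) and -0.57 (adjusted p = 0.186) with edgeR. Without the second si-NEAT1_2 library the median of the 10 genes was -0.17, and without the second NC library -0.20. In either case, 0 of the 3 lower genes had an unadjusted p under 0.05. With a correction for GC content and transcript length the median was -0.10.

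**Figure D3:**
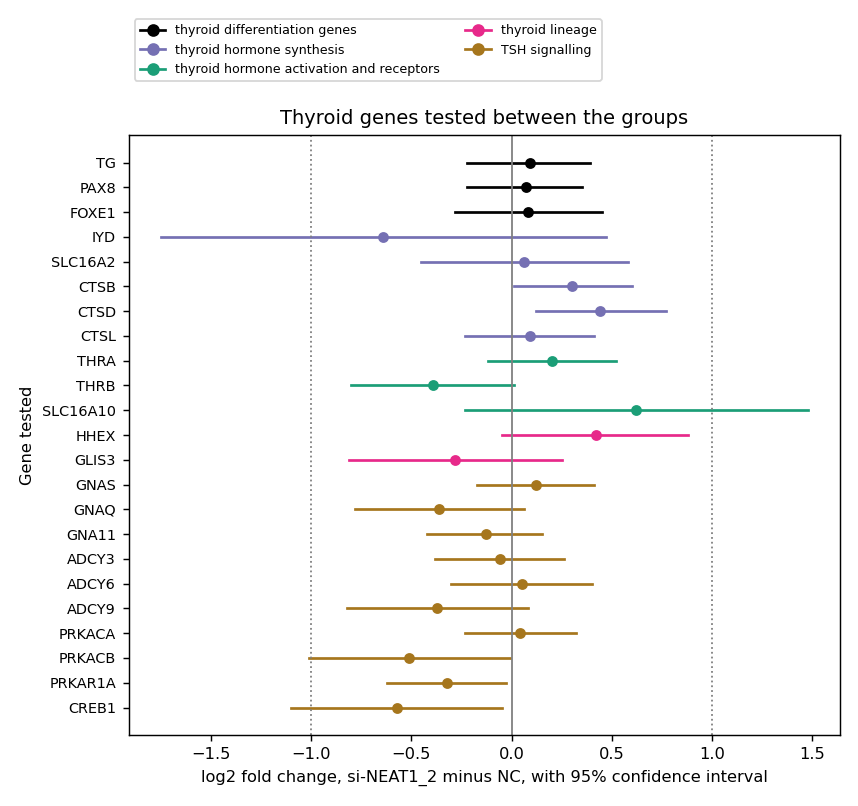
Log2 fold change of si-NEAT1_2 against NC (horizontal axis) for the 3 thyroid differentiation genes and 20 companions tested with edgeR, with 95% confidence intervals and dotted lines at a fold change of 2. The intervals of TG, PAX8 and FOXE1 are narrow and cross 0, while those of IYD and SLC16A10, with few counts, are wide.

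The table with 1 value per group gave other levels, and it holds no replicates, so no test was made. PAX8 was listed at 330 FPKM in NC and 157 FPKM in si-NEAT1_2, a difference of -52.5%. The NC value lay above the 3 NC libraries (129 to 134 FPKM), while the si-NEAT1_2 value lay within its libraries (113 to 169 FPKM). FOXE1 was listed at 11.2 and 4.79 FPKM (-57.3%), above the NC libraries and below the si-NEAT1_2 libraries.

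TG was listed at 0.317 FPKM in NC and 0.133 FPKM in si-NEAT1_2 (-57.9%). Both values were below every library, whose means were 8.55 times and 21.0 times those of the table. In counts, TG had 36.0 and 17.3 in the table and 477 to 632 in the libraries. SLC26A4 was listed at 0.15 and 0.07 FPKM (-53.3%), within the range of its libraries in both groups.

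The other members were listed at or near 0 in the table. TSHR was at 0 in both groups, DIO2 at 0 in NC and 0.14 FPKM in si-NEAT1_2, and DUOX2 at 0.04 FPKM in NC and 0 in si-NEAT1_2. SLC5A5 was at 0.00333 FPKM in both groups, and NKX2-1 at 0 in NC and 0.0167 FPKM in si-NEAT1_2. Of the 11042 genes at 1 FPKM or more in either column, 14.0% were lower in si-NEAT1_2 by a ratio of at least 2 and 3.43% higher, and 64.6% were lower by any amount. PAX8 and FOXE1, the 2 members above that level, were both among the former.

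The table and the libraries thus gave different values for groups of the same name. Among the markers, KRT19 was at 29.8 FPKM in NC and 26.7 FPKM in si-NEAT1_2 in the table, against 0.18 to 0.7 FPKM in the libraries. LUM went the other way, at 0.43 and 0.693 FPKM against 16.2 to 25.0 FPKM. Which samples the table was made from is not known. The table total was 17678761 counts in NC and 19579897 in si-NEAT1_2, each below every library, so that its columns are neither sums nor means of these libraries. Over all genes, the table value lay outside the range of the 3 libraries for 87.5% of 11659 genes in NC and 80.8% of 11368 genes in si-NEAT1_2. Values outside that range were therefore not particular to PAX8, FOXE1 and TG. Gaps as large as those of TG and PAX8 were less common. In ratio to the library mean, at most 4.3% of these genes in NC and 6.34% in si-NEAT1_2 lay as far below as TG. At most 15.6% lay as far above as PAX8 in NC. For PAX8, the log2 fold change of 0.07 over the libraries stood beside a log2 ratio of -1.07 in the table, for FOXE1 0.08 beside -1.21, and for TG 0.09 beside -0.84 (after adding 0.1 FPKM).

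**Figure D4:**
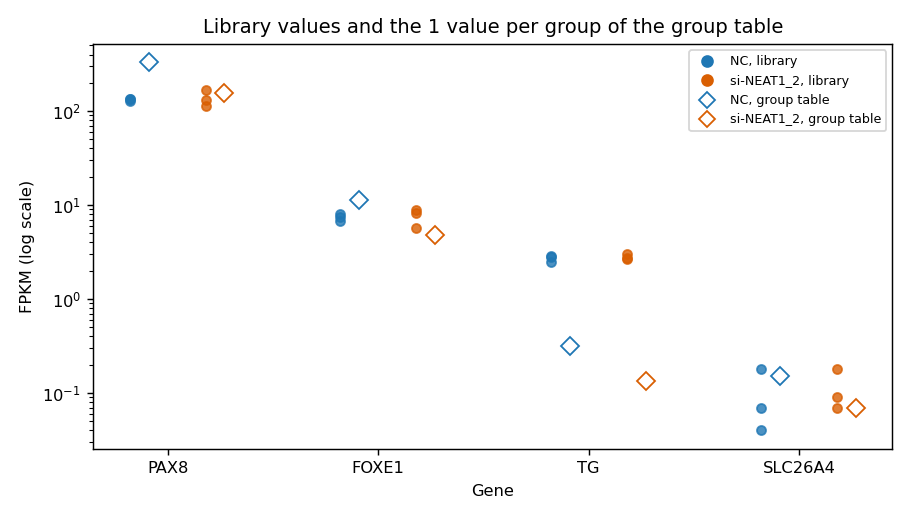
FPKM (log axis) of PAX8, FOXE1, TG and SLC26A4 in the libraries (filled circles) and in the table with 1 value per group (open diamonds), NC in blue and si-NEAT1_2 in orange. The table values of TG lie below all 6 libraries, and the NC value of PAX8 lies above them.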

How the data were processed

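RNA of K1 cells was sequenced after transfection with a negative control siRNA (NC, 3 libraries) or si-NEAT1_2 (3 libraries), and samples were grouped by their labels. The study's methods name TopHat2 and RSEM, while the submitters' processing notes list fastp 0.18.0, Bowtie2 2.2.8, HISAT2, StringTie 1.3.1 and GRCh38. The authors deposited expected counts per gene without normalization, and 9.19% to 9.61% of them per library had decimals. The deposited FPKM values, computed by the authors, are scaled for library size and transcript length. The deposited group table holds 1 expected count and 1 FPKM value for each group and gene. Its counts had decimals in 57.7% of rows in NC and 58.9% in si-NEAT1_2. Low counts had the form of means of 3 values, such as 0.333 for SLC5A5 in both groups. In si-NEAT1_2, NKX2-1 was at 0.667 and DIO2 at 8.33. Whether the counts were formed so, and from which samples, is not known. The 838 rows without an Ensembl identifier (0.336% to 0.447% of counts) were kept in the library totals. Those that passed a filter entered the fits and count there as genes. They were left out of the ranks, the search for genes most like a member and the shares of the group table.

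Counts were rounded, filtered with filterByExpr (13109 genes) and scaled by TMM. Groups were compared by quasi-likelihood in edgeR 4.0.16 (R 4.3.3), with Benjamini-Hochberg adjustment over all genes tested. limma 3.58.1, DESeq2 1.42.0, other scalings and filters, a replicate block, the library code and the omission of each library were alternatives. Corrections for GC content and length (splines, 5 degrees of freedom) were chosen after seeing the data. Two-sided exact permutation tests were used for FPKM values, and ratios of the group table were taken after adding 0.1 FPKM.

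The members and lists were chosen with earlier results of these data known. 1 gene of the lists is not reported here. All 9 members were named. Companions were named at a mean FPKM of at least 10, at 0 counts in every library, or with the highest or lowest log2 fold change. THRA, HHEX, GLIS3, PRKACB and CREB1 met none of these rules and were named after their values were seen. DUOXA2 was named because it overlaps a member. The 3 genes most like a tested member had an average log2 CPM of at least 3.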

Additional observations from a re-analysis of the deposited data

How the results depend on the processing

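Of the members, 0 were called under each of 17 alternatives, and the adjusted p ranged from 0.553 to 0.977 for PAX8, 0.458 to 0.982 for FOXE1 and 0.546 to 0.960 for TG. TG kept a positive log2 fold change in all 17 (0.02 to 0.16). PAX8 turned negative when corrected for GC content and length (-0.09), the same with a replicate block (-0.10) and without the third si-NEAT1_2 library (-0.04). FOXE1 turned negative under these corrections (-0.14 and -0.15), with the library code as a covariate (-0.02) and without the third si-NEAT1_2 library (-0.02). The cause was not tested. With 1 library left out, the log2 fold change ranged from -0.04 to 0.13 for PAX8, -0.02 to 0.21 for FOXE1 and 0.02 to 0.10 for TG. In the group table, the log2 ratio of PAX8 was -1.13 from CPM in place of FPKM. That of TG depended on the value added, at -0.84 with 0.1 FPKM, -0.22 with 1 FPKM and -1.12 from CPM.

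Over all genes, 0 were called higher and 0 lower with edgeR. There were 9 and 9 without the filter on low counts, 25 and 48 with DESeq2 (1273 genes had no adjusted p), 1 and 3 when corrected for GC content and length, 0 and 1 without TMM, and 0 and 1 with limma on log2(FPKM + 0.1). With 1 library left out, 0 to 32 were higher and 0 to 184 were lower. The 32 and 184 came without the first si-NEAT1_2 library, and without the second there were 1 and 2. At an unadjusted p under 0.05 alone there were 1469 higher and 1696 lower, and among the companions 2 and 3. These counts were 532 and 542 without the second NC library (companions 0 and 0), and 1997 and 2391 without the first si-NEAT1_2 library (companions 2 and 5).

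The study's methods speak of 3 pairs of NC or si-NEAT1_2 cells, and whether the replicate numbers mark these pairs is not stated. Deviations of same-numbered libraries from their group mean correlated at -0.282, -0.365 and -0.00797. Of the 6 libraries, 0 were closest to their own number. With 3 libraries per group, these values cannot exclude a pairing. With the replicate block the log2 fold change was 0.06 for PAX8, 0.07 for FOXE1 and 0.09 for TG, 0 genes were called, and 615 genes higher and 923 lower had an unadjusted p under 0.05 (companions 1 and 0). The median log2 fold change over all genes was 0.00902, and -0.0533 without TMM. The 6 members with at most 12 counts per library were too shallow for any direction.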
